A study of Homo sapiens and Mus musculus with 16 samples.

Results

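Promoter regions of open chromatin that appeared in only 1 of 2 HPAF-II lists are described here. They were chosen by their overlap: a promoter region had an annotated start site no further than 1 kb away, and it was a member when no region of the other list shared at least 1 bp with it. In all, 5265 regions met the rule, of 55584 promoter regions in the 2 lists and of 364071 regions in the whole series. Of these, 4197 stood only in the list of the control cells and are called control-only, which was 14.4% of the 29181 promoter regions of that list. The remaining 1068 stood only in the list of the HNF4G-KO cells and are called KO-only, which was 4.04% of its 26403 promoter regions. Over all regions, promoters or not, the same shares were 25.0% and 6.76%, so in both lists promoter regions were less often unmatched than the list as a whole.

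Open chromatin was measured with Omni-ATAC-seq, in which a transposase cuts and tags accessible DNA. HPAF-II is an established human pancreatic adenocarcinoma line. The control group was labelled wild type and treated with CRISPR-Cas9, and the HNF4G-KO group carried a CRISPR knockout of HNF4G; the methods describe frameshift edits and pooled clones. There were 4 replicates per group, but each group had a single list of regions, so no value below has a replicate check, the depth behind the lists is unknown, and no test between the groups was possible. All intervals are 95% Wilson intervals and cover counting error only. Cells of the KPC mouse model, in primary tumour and liver metastasis lines, made up the other 8 of the 16 samples and were not compared here.

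A promoter is the stretch of DNA at the start of a gene where the transcription machinery assembles. Many promoters of widely used genes sit in CpG islands, stretches rich in G, C and the dinucleotide CG that are open in most cell types. Other genes have promoters with few CG dinucleotides that open in particular lineages, and many genes have several promoters. HNF4G and its relative HNF4A are nuclear receptors that bind the same DNA consensus and control liver, gut and pancreas genes.

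The epithelial genes EPCAM, KRT8, KRT18, KRT19 and CDH1 each had at least 1 shared promoter region in both lists, whereas the leukocyte gene PTPRC and the endothelial genes PECAM1 and CDH5 had none in either. HNF4G itself had 2 promoter regions in each list and all were shared. Its accessibility therefore gave no check of the knockout, since a frameshift need not close a promoter.

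The HNF4 consensus CAAAGTCCA was found in the central 200 bp of a small number of control-only regions, and the sites of the 5 highest-scoring ones at protein-coding genes are printed because they carry the receptor's own recognition letters. Each line gives the consensus in capitals with up to 10 bases on either side, 5′ to 3′ in hg38, on the strand that reads CAAAGTCCA. The sites lie at chr12:70541213-70541241 on the minus strand (PTPRB), chr20:1473650-1473678 on the plus strand (NSFL1C), chr6:133481528-133481556 on the plus strand (EYA4), chr20:37343786-37343814 on the minus strand (SRC) and chr1:74748971-74748995 on the plus strand (TYW3).
PTPRB: tatacaagtgCAAAGTCCAaaattcctct
NSFL1C: tttgtgtggtCAAAGTCCAgaggggtgct
EYA4: agttctgggtCAAAGTCCAgaggaagagg
SRC: ccttgttcttCAAAGTCCAgagtaaacgc
TYW3: acagggCAAAGTCCAgagtttggat

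The other sequence shows the base composition of a KO-only region. RASD2 had the highest-scoring KO-only region among protein-coding genes without another shared promoter region. The central 200 bp, at chr22:35540153-35540352, are read on the plus strand of hg38 with CG dinucleotides in capitals.
RASD2: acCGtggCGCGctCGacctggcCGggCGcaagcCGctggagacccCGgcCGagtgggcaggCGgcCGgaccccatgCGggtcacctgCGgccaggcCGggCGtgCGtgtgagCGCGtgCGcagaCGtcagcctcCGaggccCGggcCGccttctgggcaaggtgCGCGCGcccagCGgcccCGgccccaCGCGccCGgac
This stretch had a GC content of 80% and 31 CG dinucleotides, and none of 6 stretches of 31 bases taken from it occurred more than once in hg38.

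Most members were weak and narrow. Scores have no stated scale, so they are given as a percentile within the list. The median control-only region stood at percentile 16.9 of its list and was 263 bp wide, and the median shared promoter region of that list stood at 73.5 and was 829 bp wide. The median KO-only region stood at percentile 13.0 and was 239.5 bp wide, against 70.0 and 751 bp for shared promoter regions. Among the control promoter regions of the lowest score bin, 69.7% were control-only, and in the highest bin it was 1 of 5592. In the HNF4G-KO list the share went from 28.6% in the lowest bin to 0 of 5119 in the highest. Only 126 control-only and 10 KO-only regions stood in the upper 50% of their lists. Since presence in a list depends on the score, these values describe what the rule selected.

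**Figure D1:**
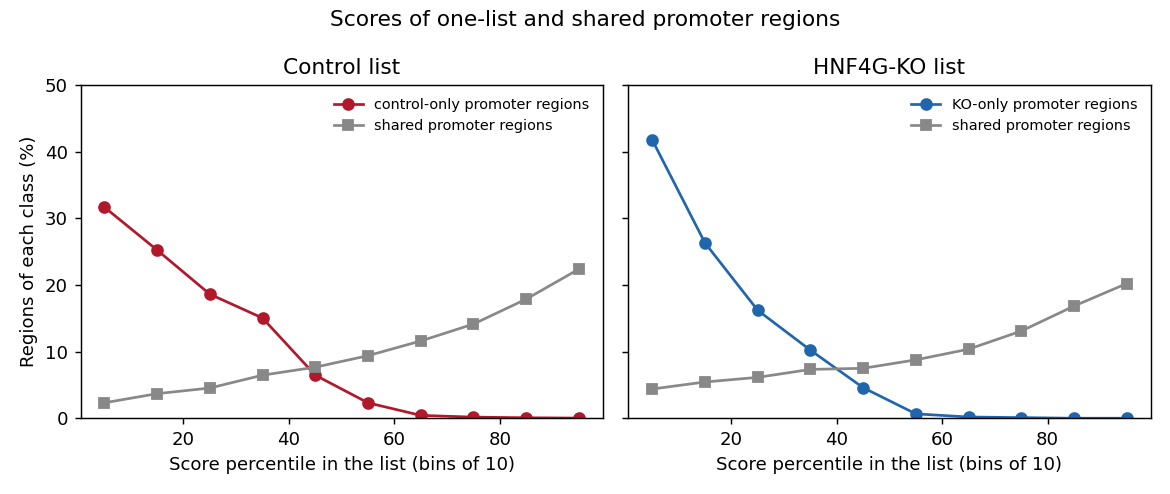
Share of control-only (red), KO-only (blue) and shared (gray) promoter regions in each bin of 10 score percentiles of their own list. One-list regions crowd into the lowest bins, with 31.7% of control-only and 41.8% of KO-only regions in the lowest, whereas shared promoter regions are most frequent in the highest.

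The excess of control-only over KO-only regions changed with the length of the lists. The control list held 118107 regions and the HNF4G-KO list 97047. When the control list was shortened to its 97047 highest-scoring regions, 2042 promoter regions were control-only and 2076 KO-only, or 7.92% and 7.86%. At equal length the 2 directions thus held nearly the same number of promoter regions. Shortening the control list removes control-only regions and turns shared HNF4G-KO regions into KO-only ones, so a move toward balance was built into this setting. Depth and list length cannot be told apart from the knockout in these files.

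Members near the thresholds looked like each other on either side. Control regions in the outermost 100 bp of the rule, nearly 1 kb from a start site, were control-only in 28.6% of cases (252 of 881), and those up to 100 bp beyond it in 28.7% (247 of 862). For the HNF4G-KO list the shares were 6.22% and 7.18%. At the overlap limit, 11 control promoter regions were covered over 1 to 20 bp and counted as shared, with a median percentile of 12.2, and 9 lay 0 to 20 bp away and counted as control-only, with a median percentile of 8.12. The corresponding numbers for the HNF4G-KO list were 9 and 7.

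Many members were neighbours of a region in the other list. The nearest region of the other list was a median of 3284 bp from a control-only region and 1446 bp from a KO-only region. It lay within 500 bp for 1070 control-only (25.5%) and 402 KO-only regions (37.6%), and within 100 bp for 133 and 82.

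By gene type, members were less often at protein-coding genes than shared promoter regions. Each region was given the type of the genes whose start sites it lay near, with protein-coding taking precedence. Of the control-only regions, 2763 were at protein-coding genes, 65.8% (64.4 to 67.3) against 79.0% of shared promoter regions. A further 929 were at genes for long non-coding RNAs (lncRNAs), transcripts that encode no protein, 22.1% against 14.9%. Pseudogenes, copies of genes that have usually lost their coding function, accounted for 312, 7.43% against 3.44%, and other RNA genes for 193, 4.60% against 2.70%. The KO-only regions lay between: 784 were protein-coding, 73.4% (70.7 to 76.0) against 78.9%, 192 lncRNA, 18.0% against 15.0%, 43 pseudogene and 49 other RNA.

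At protein-coding genes, most members were extra promoter regions of a gene that kept a shared one. This held for 2208 of 2763 control-only regions, 79.9% (78.4 to 81.4), and for 628 of 784 KO-only regions, 80.1% (77.2 to 82.8). Over all gene types, 2606 of 4197 control-only (62.1%) and 703 of 1068 KO-only regions (65.8%) had another shared one, against 54.6% and 56.2% of shared regions. At lncRNA genes it was less frequent: 323 of 929 control-only regions (34.8%) and 61 of 192 KO-only regions (31.8%) had another shared promoter region. Shared regions at lncRNA genes had another in 33.8% and 37.8% of cases, so members did not stand out there. At pseudogenes the counts were 51 of 312 (16.35%) and 8 of 43 (18.6%), against 11.2% and 14.5% of shared regions. At other RNA genes they were 24 of 193 (12.4%) and 6 of 49 (12.2%), against 11.6% and 15.0%. Where a protein-coding gene kept a shared region, it was at the same start site for 1076 of 2208 control-only regions (48.7%). The same held for 348 of 628 KO-only regions (55.4%). Otherwise it was at another start site of that gene. For shared regions at protein-coding genes with another shared one, the same-site shares were 39.98% (control list) and 43.22% (HNF4G-KO list).

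**Figure D2:**
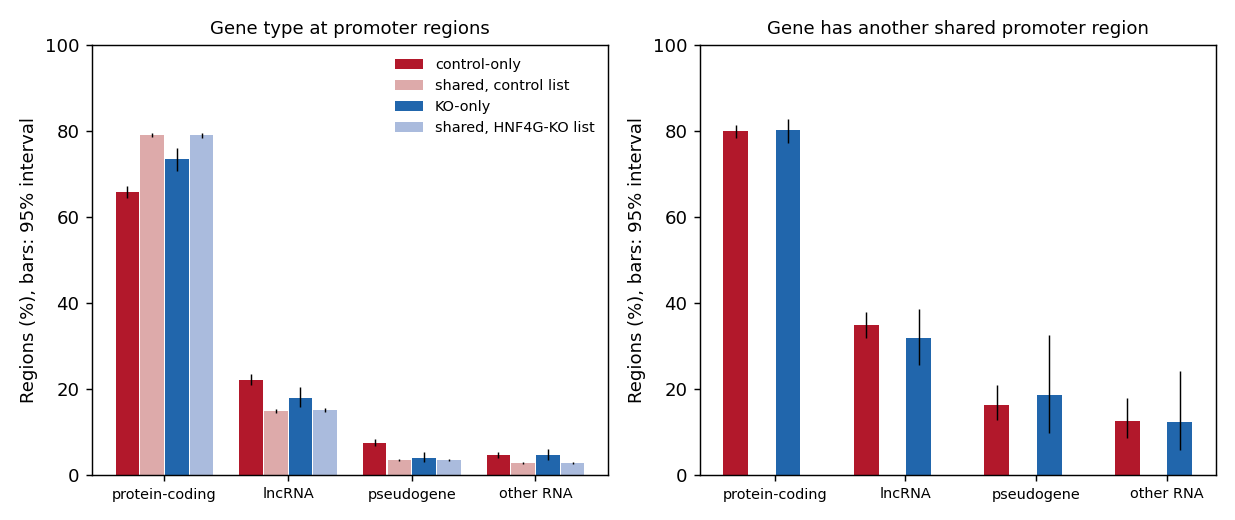
Left, share of promoter regions (%) by gene type, for control-only, KO-only and the shared regions of each list; right, share of the control-only and KO-only regions whose gene has another shared promoter region. Error bars are 95% Wilson intervals. At protein-coding genes 79.9% of control-only and 80.1% of KO-only regions kept another shared region, and at lncRNA genes 34.8% and 31.8%. The same shares of shared promoter regions, not drawn, were 61.9% and 62.9% at protein-coding and 33.8% and 37.8% at lncRNA genes.

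The remaining members belonged to genes with no shared promoter region. Counted by gene, 525 of 14994 protein-coding genes with a promoter region in the control list had none that was shared, 3.50%, and 148 of 14582 in the HNF4G-KO list, 1.01%. In 29 protein-coding genes both lists had promoter regions that did not touch. That left 494 protein-coding genes with promoter regions in the control list alone and 118 in the HNF4G-KO list alone, beside 14480 with a shared one. For lncRNA genes the counts were 679, 133 and 6323. A second member at the same gene was uncommon: 2301 protein-coding genes had 1 control-only region, 248 had 2 39 had 3, 1 had 4 and 2 had 5, and 727 had 1 KO-only region, 44 had 2 and 4 had 3.

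Members covered start sites less often than shared promoter regions. Of the control-only regions, 28.3% covered a start site, against 69.7% of shared promoter regions, and of the KO-only regions 31.9% against 67.9%. Wide regions cover more, and among regions of 150 to 400 bp the shares came closer, at 25.7% against 32.9% and 28.0% against 30.3%. The center lay a median of 436.5 bp from the start site in control-only and 325.5 bp in KO-only regions, and 180.8 and 169 bp in shared ones. Centers were in introns in 54.2% of control-only and 51.8% of KO-only regions, against 42.5% and 41.5%. A canonical start site, the one of the transcript chosen to represent the gene, was within 1 kb in 58.3% and 64.3% of members, against 75.2% and 75.0% of shared promoter regions. At 150 to 400 bp the control-only contrasts narrowed, to 441.5 against 387 bp, 54.6% against 53.0% in introns and 58.1% against 61.1% near canonical start sites. The KO-only ones turned at that width, to 340.5 against 405.5 bp, 53.05% against 54.0% and 62.8% against 61.1%.

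GC content ran differently in the 2 lists. In the central 200 bp it was 53.3% ± 9.19 (SD over 4197 regions) in control-only and 60.7% ± 11.3 in shared promoter regions of that list, and 59.3% ± 14.0 in KO-only and 61.0% ± 11.6 in shared ones. CpG-rich windows made up 12.1% of control-only and 35.0% of KO-only regions, against 48.5% and 48.9% of shared ones. Among regions of 150 to 400 bp, the mean GC content was 53.4% in control-only against 56.6% in shared regions, and 58.0% in KO-only against 55.2% in shared ones, so at like width the 2 directions lay on opposite sides of the shared regions. CpG-rich windows at that width made up 11.6% of control-only against 24.05% of shared regions. In the HNF4G-KO list they made up 31.2% of KO-only against 20.4% of shared regions, so that contrast turned.

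Read the other way, the share of control promoter regions that were control-only went down with GC content, from 25.0% (23.8 to 26.2) at 40 to 50% GC through 10.3% at 60 to 70% and 2.86% at 70 to 80% to 1.19% (0.577 to 2.43) at 80% and above, where it was 7 of 589. The HNF4G-KO list ran differently: 5.95% at 40 to 50% GC, 2.45% at 60 to 70% and 2.77% at 70 to 80%, but 11.5% (9.69 to 13.7), or 114 of 988, at 80% and above. Within the lower 30% of each list by score, 63.2% of control promoter regions at 40 to 50% GC were control-only and 7.90% at 80% and above. In the HNF4G-KO list these were 17.0% and 56.8%, the latter 63 of 111. In the upper 70%, 51 of 877 HNF4G-KO promoter regions of 80% GC and above were KO-only (5.82%), and the other GC bins held at most 0.878%. Away from promoters, KO-only regions were likewise most frequent at 80% GC and above, with 15 of 62 (24.2%), and control-only regions least, with 0 of 38 (interval up to 9.18%). GC content moved with list membership in both directions, and its part in the result was not tested.

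Of the 114 KO-only regions of 80% GC and above, 81 covered a start site (71.1%), against 95.2% of the 874 shared promoter regions of like GC content in that list. A canonical start site was within 1 kb of 103 (90.35%), and 110 were at protein-coding genes (96.5%). These were near the 93.1% and 95.8% of the shared ones. For 89 (78.1%) the gene kept another shared promoter region, at the same start site in 65 (57.0%), against 57.1% and 25.9% of the shared ones. A control region lay within 500 bp of 62. Their median width was 327.5 bp and their median percentile 23.9, against 1112 bp and 73.9 for the shared ones.

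**Figure D3:**
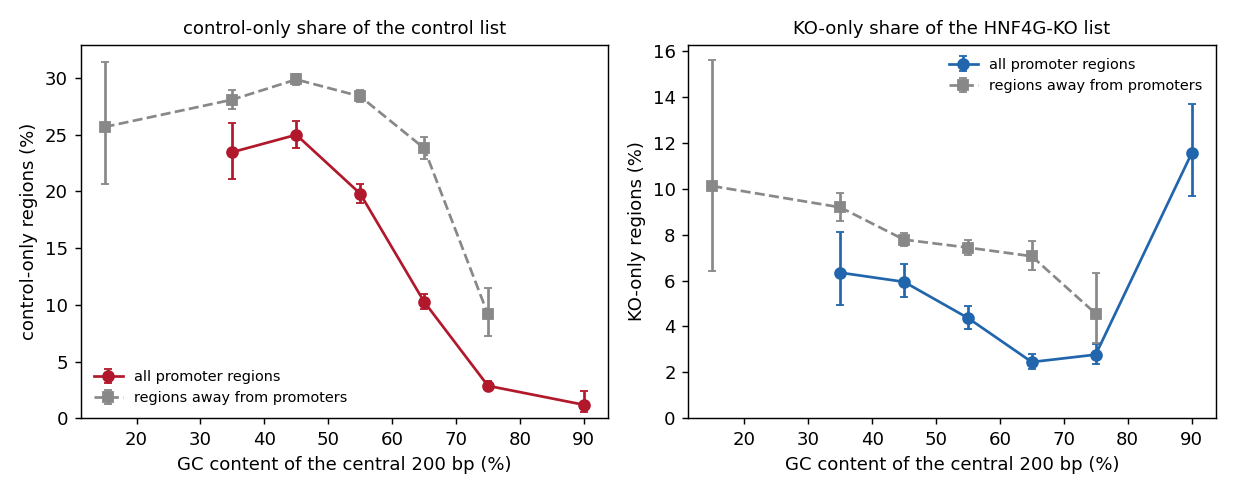
Share of control-only regions of the control list (left) and of KO-only regions of the HNF4G-KO list (right) by GC content of the central 200 bp (%), for promoter regions (colored) and regions away from promoters (gray), with 95% Wilson intervals. The lowest bin runs from 0 to 30% and the highest from 80 to 100%, and bins under 100 regions are left out. At promoters the control-only share ends at 1.19% and the KO-only share at 11.5% in the highest bin.

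Consensus sequences were read in the same window. The central 200 bp held the HNF4 consensus on either strand in 34 control-only regions, 0.810% (0.580 to 1.13), against 92 of 24984 shared ones, 0.368% (0.30 to 0.451). Among KO-only regions it was 3 of 1068, 0.281% (0.0956 to 0.823), against 0.418%. By GC content, the shares were 1.49% of control-only against 0.900% of shared regions below 40% GC and 1.39% against 0.565% at 40 to 50%. They were 0.632% against 0.625% at 50 to 60% and 0.191% against 0.160% at 60% and above. The intervals were apart only at 40 to 50% GC. When the whole region was searched, shared regions, being wider, held it more often and the difference turned to -0.61 points. Among regions of 150 to 400 bp the central window kept the direction. The shares were 0.736% (0.503 to 1.08) of control-only against 0.357% (0.216 to 0.587) of shared regions, with intervals that overlap. Most control-only regions lacked these letters, which says nothing of whether the receptors bind there.

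Other consensus letters also differed between members and shared promoter regions, and several of the contrasts turned when only regions of 150 to 400 bp were compared. The ETS consensus CCGGAAGT was in 0.334% of control-only windows against 2.02% of shared ones, NRF1 (CGCATGCG) in 0.0953% against 0.953%, and KLF/SP (GGGCGGG) in 8.72% against 23.6%. KO-only regions held them in 0.375% against 2.1%, 0.655% against 0.920% and 18.8% against 24.0%. At 150 to 400 bp, KLF/SP was in 8.78% of control-only against 15.4% of shared regions, but in 16.6% (14.4 to 19.1) of KO-only against 12% (11.3 to 12.9), and NRF1 was in 0.632% of KO-only against 0.322%, with intervals that overlap. NRF1 was in 0.0566% of control-only against 0.309% of shared regions of that width. ETS was then in 0.227% (0.115 to 0.447) of control-only against 0.523% (0.346 to 0.790) of shared regions. For KO-only regions it was 0.421% (0.164 to 1.08) against 0.596% (0.432 to 0.820). The ETS contrasts were thus smaller at like width, with intervals that overlap. The TATA consensus TATAAA stood in 6.65% of windows of either class, against 3.92% and 3.90% of shared ones, and at 150 to 400 bp in 6.34% and 6.53% against 5.73% and 6.04%. AP-1 (TGACTCA) was in 12.8% of control-only and 11.4% of KO-only windows, against 8.99% and 9.45%. At 150 to 400 bp this turned, with 14.1% against 16.8% and 12.5% against 17.0% of shared regions. FOXA (TGTTTAC) was in 3.10% and 2.62% against 2.32% and 2.2%. At 150 to 400 bp members held it no more often, with 3.03% and 2.84% against 3.04% of shared regions in either list. The letters AGATAAG, read by GATA factors, were in 2.00% and 1.78% against 1.28% and 1.29%. At 150 to 400 bp these shares came closer, at 1.90% and 1.895% against 1.64% and 1.85%. NF-Y (CCAAT) was in 22.0% and 16.2% against 19.5% and 19.8%, and at 150 to 400 bp in 22.2% and 17.2% against 19.8% and 20.4%. CTCF was in 2.02% and 1.31% against 1.73% and 1.79%, and at 150 to 400 bp in 2.38% and 1.47% against 3.75% and 3.90%. HNF1 was in 0.0953% and 0.0936% against 0.104% and 0.107%. Of 6 stretches of 31 bases in the window, at least 1 occurred more than once in the genome in 17.5% of control-only and 13.3% of KO-only regions, against 9.81% and 9.84% of shared ones. In the lower 50% of each list by score it was 17.5% against 11.7% for control-only regions. For KO-only regions it was 13.4% (11.5 to 15.6) against 12.3%, an interval that includes the shared share.

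Of the control-only regions at protein-coding genes without another shared promoter region, the 8 highest-scoring are named here. The highest was at DDX53, a testis RNA helicase gene, at chrX:22999581-23000245, with a percentile of 88.7 and the nearest HNF4G-KO region 48970 bp away. MEI4, needed for meiotic DNA breaks, had one at percentile 63.4 (chr6:77650086-77650719). SLITRK6, a neuronal membrane protein gene, had one over its start site at 59.5 (chr13:85799287-85799598), 782214 bp from the nearest HNF4G-KO region. The muscle genes MYO18B and KLHL41 stood at 60.4 and 59.1, NOX5, an NADPH oxidase, at 59.5, and AQP4, a water channel of brain astrocytes, at 58.0. C2orf78 stood at 64.3, and 4 of the 6 stretches of 31 bases from its region occurred more than once in the genome. Of these 8, KLHL41 alone had a promoter region in the HNF4G-KO list, and that region did not overlap the control-only one. Their GC content ran from 40.5% (MYO18B) to 73.0% (AQP4).

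Among lncRNA genes without another shared promoter region, the highest control-only regions stood at percentile 80.3 (LINC02326), 78.3 (ENSG00000253524), 72.6 (KCNMB2-AS1) and 70.8 (ENSG00000235564). All of them covered a start site. At KCNMB2-AS1, 5 of 6 stretches of 31 bases occurred more than once in the genome, up to 661 times.

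Control-only regions of protein-coding genes that kept another shared promoter region were highest at FGF13 (percentile 79.2), a fibroblast growth factor homolog that binds sodium channels. That region covered a start site other than the canonical one (chrX:138990422-138990920), in an intron of longer transcripts, 211300 bp from the nearest HNF4G-KO region, and 3 of its 6 stretches were repeated in the genome. NAALADL2 (76.2), PALLD (72.4), which encodes the actin-bundling protein palladin, and ADAMTS6 (62.2), a secreted metalloprotease, followed. None of the 4 was within 1 kb of a canonical start site, and the center of each was in an intron.

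The 8 highest-scoring KO-only regions at protein-coding genes without another shared promoter region differed in GC content from the control-only ones. RASD2, a small GTPase of the striatum, was highest at percentile 62.7 (chr22:35539921-35540585), upstream of its start site. RBM38, an RNA-binding protein gene that p53 activates, followed at 59.2 (chr20:57391169-57391960), and its region covered the canonical start site. In the control list the nearest region lay 1408 bp away. MTSS2, an actin regulator, had a region of 1098 bp over its canonical start site at percentile 49.3 (chr16:70685390-70686487), with a control region at percentile 13.1 lying 472 bp away. PTPRN2, a receptor phosphatase of secretory granules, stood at 47.3 and ERFE, which encodes the iron hormone erythroferrone, at 42.6, both over canonical start sites. PTPRS (58.6), another receptor phosphatase, KCNJ9 (42.0), a potassium channel subunit, and KMT5B (38.5), a histone H4 methyltransferase, completed the group. Of these 8, MTSS2 and KMT5B had promoter regions in the control list as well, 1 and 2, that did not overlap the KO-only ones. At KMT5B the nearest control region lay 653 bp away. GC content was 80% at RASD2, 84.5% at RBM38, 87.0% at MTSS2, 87.5% at PTPRN2 and 85.5% at ERFE, but 54.0% at PTPRS, 51.0% at KCNJ9 and 65.5% at KMT5B. Thus 5 of the 8 had a GC content of at least 80%, and none of the 8 control-only genes above did. The whole class was less extreme. Its 156 KO-only regions had a median GC content of 62.25% and an upper quartile of 74.75%. The 555 control-only ones of this kind had 56% and 62%. Over all 1068 KO-only promoter regions, 114 reached 80%.

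Where a protein-coding gene kept another shared promoter region, the highest KO-only regions were at SLC23A2, the vitamin C transporter gene (percentile 71.1, 86.0% GC), TRAF3, a signalling adaptor (60.2, 84.0% GC), IQANK1 (57.8, 71.5% GC) and USF2, an E-box transcription factor (56.1, 82.5% GC). The SLC23A2 region, at chr20:5000903-5001675, was the highest of all KO-only regions and lay 87 bp from a control region. At USF2 the gap was 88 bp, at IQANK1 235 bp and at TRAF3 578 bp. These regions were thus close to accessible DNA of the control cells. Among KO-only lncRNA regions without another shared one, the highest stood at 45.9 (ENSG00000254777), 41.6 (LINC01444), 41.2 (LINC01561) and 39.4 (LINC00840).

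The control-only regions with the HNF4 consensus shown above were moderate in score. They stood at percentile 57.8 for PTPRB, an endothelial receptor phosphatase, 51.4 for NSFL1C, a cofactor of the p97 ATPase, 48.4 for EYA4, a developmental phosphatase, 40.9 for SRC, the tyrosine kinase, and 38.1 for TYW3, a tRNA-modifying enzyme. None was within 1 kb of a canonical start site. EYA4 had no promoter region in the HNF4G-KO list, and the region over one of its start sites (chr6:133481399-133481701) was 87550 bp from the nearest one. The other 4 genes kept a shared promoter region, and at SRC the HNF4G-KO list had a region 464 bp away.

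Some genes collected several members. SEPTIN9, a cytoskeletal GTPase, had 5 control-only regions among 15, and COL4A3, a basement membrane collagen, 4 among 4. In the other direction FBRSL1, FHL1 and MAGI1 had 3 KO-only regions each, among 4, 4 and 6. FHL1 encodes a LIM-domain protein of muscle and MAGI1 a scaffold of cell junctions. SEPTIN9 has 46 annotated start sites, so more of its DNA counted as promoter.

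Gene lists were read against all protein-coding genes with a promoter region, of which 17.3% had a control-only and 5.32% a KO-only region. Of genes known to be regulated by HNF4 factors in liver and gut, 7 of 22 had a control-only promoter region, 31.8% (16.4 to 52.7), and 0 of 21 a KO-only one (interval up to 15.5%). The 7 were APOA4, an apolipoprotein, F7, coagulation factor VII, NR1H4, the bile acid receptor, PPARA, a fatty acid receptor, SLC5A1, the gut glucose transporter, TM4SF4 and TTR, transthyretin. APOA4 (chr11:116823353-116823631) and F7 (chr13:113105672-113105912) had no other promoter region in either list, and the other 5 kept at least 1 shared one. Their percentiles ran from 3.8 (TM4SF4) to 22.0 (TTR), so all were weak, and none of the 7 regions held the HNF4 consensus. The interval includes the share of all genes.

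Of the classical pancreatic cancer genes, 4 of 19 had a control-only region (AGR2, BTNL8, FAM3D and REG4) and 1 of 18 a KO-only one (ST6GALNAC1). BTNL8, a butyrophilin-like gene of gut epithelium, had no shared promoter region, and AGR2, a secretory pathway disulfide isomerase, had 2 control-only regions, at percentiles 46.1 and 24.4, beside a shared one. Of the basal genes, 2 of 18 had a control-only region (KRT5 and KRT6C) and 1 of 18 a KO-only one (KRT6A). The neighbouring keratin genes KRT6C and KRT6A thus had their only promoter region in opposite lists, at percentiles 25.2 and 7.12. The 2 genes are near-identical copies, and whether each region can be placed at 1 of them alone was not tested. Of the epithelial-mesenchymal genes it was 3 of 20 (CLDN4, EPCAM, ESRP1) and 1 of 20 (CDH2), and each kept a shared promoter region. Among pancreas and foregut transcription factors it was 2 of 22 (GATA4, KLF4) and 1 of 22 (NR5A2), and GATA4 and NR5A2 had no shared promoter region. These regions stood at percentiles 6.42 and 9.90.

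Gene families differed in how often they held a member. Collagens, the structural proteins of the matrix, had the highest share of genes with a control-only region: 15 of 28 with a promoter region had a control-only one, 53.6% (35.8 to 70.5), and 10 of 28 had no shared promoter region, 35.7% (20.7 to 54.2), against 3.50% of all protein-coding genes. The 10 were COL11A2, COL18A1, COL4A3, COL4A4, COL4A5, COL4A6, COL5A2, COL6A2, COL8A1 and COL9A1. They are not independent, since COL4A3 and COL4A4 shared 3 regions and COL4A5 and COL4A6 shared 1, each pair being read from one promoter in opposite directions. Their percentiles were 19.1 or lower. KO-only regions were at 2 of 19 collagen genes. At COL18A1 the KO-only region (chr21:45405430-45405726, percentile 23.7, 81.5% GC) was 803 bp from a control-only one (percentile 7.28, 63.5% GC).

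Of the remaining families, control-only shares ranged on either side of the 17.3% of all genes. Potassium channel genes had a control-only region in 18 of 47 cases (38.3%, 25.8 to 52.6), olfactory receptors in 7 of 18 (38.9%, 20.3 to 61.4), protocadherins in 5 of 15 (33.3%, 15.2 to 58.3), keratins in 4 of 15 (26.7%, 10.9 to 52.0) and GPR genes in 11 of 42 (26.2%, 15.3 to 41.1). The last 3 intervals include the share of all genes. KO-only regions were at 5 of 44, 0 of 11, 0 of 11, 3 of 15 and 2 of 40 of these genes, and the keratin share of 20% (7.05 to 45.2) lay above the 5.32% of all genes. Lower shares were found for ribosomal protein genes, 4 of 78 (5.13%, 2.01 to 12.5), histone genes, 2 of 55 (3.64%, 1.00 to 12.3), and zinc finger genes, 36 of 433 (8.31%, 6.07 to 11.3). KO-only regions were at 3 of 77, 4 of 56 and 14 of 428 of these.

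In the other families the intervals of the control-only share included the share of all protein-coding genes, which is another gene type than the microRNA genes. Control-only and KO-only regions were at 48 of 283 and 12 of 271 solute carriers, 7 of 34 and 2 of 32 cytochromes P450, 1 of 8 and 0 of 6 UDP-glucuronosyltransferases, 2 of 20 and 1 of 19 HOX genes, and 3 of 13 and 1 of 13 claudins. They were at 1 of 12 and 2 of 13 Wnt ligands, 9 of 51 and 1 of 48 tripartite motif genes, 29 of 194 and 3 of 186 transmembrane genes (KO-only 1.61%, 0.550 to 4.63), and 66 of 406 and 19 of 375 microRNA genes. CLDN18, a claudin of stomach and lung, had promoter regions only in the control list, and CLDN5, an endothelial claudin, only in the HNF4G-KO list. Of the microRNA genes, 42 of 406 in the control list (10.3%) and 14 of 375 in the HNF4G-KO list (3.73%) had no shared promoter region. Among the 1517 other RNA genes with a promoter region in either list, 14.0% had them in the control list alone. In the HNF4G-KO list alone it was 3.03% of these. With 23 lists compared and no test made, nothing is claimed as particular to any of them.

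By chromosome, control-only regions made up between 10.3% (chromosome 10) and 21.3% (chromosome 21, 17.2 to 26.2) of promoter regions. KO-only regions made up between 2.85% (chromosome 12) and 6.54% (chromosome 10, 5.19 to 8.21).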

How the data were processed

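ATAC-seq was done with the Omni protocol on 4 replicates each of control and HNF4G-KO HPAF-II cells, and the authors deposited 1 list of regions per group. Per the submitters' processing notes, Bowtie2 2.2.6, MACS2 2.1.1.20160309 and DiffBind were used, with hg38 for human data. The peak threshold, the read shift and how replicates were combined are not given for ATAC-seq in the sources used here; for ChIP-seq the methods describe pooled alignments before peak calling. Column 5 of the deposited lists was taken as a score of unstated scale and used only as a rank within its list. Sequencing depth is not given, so precision is limited to counting error.

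Start sites of all transcripts were taken from GENCODE 44. A promoter region lay within 1 kb of one, and a region was shared when it overlapped the other list by at least 1 bp. Shares carry 95% Wilson intervals. GC content, consensus sequences (both strands, overlaps between them ignored) and 31-base stretches were read from hg38, in the central 200 bp. CpG-rich means a GC content of at least 50% and an observed to expected CG ratio of at least 0.6. Regions were handled with Python 3.11.15 and numpy 2.4.6, and the interval functions were tested on simulated data. Members, gene lists and descriptions were chosen with earlier results of these data known. Named genes were the regions of at least 150 bp with the highest percentile: 8 protein-coding and 4 lncRNA regions without another shared one per direction, 4 protein-coding ones with one, the 3 genes with most members, the 5 highest control-only regions with the HNF4 consensus, and list members without a shared promoter region. Genes named beside these (the other list members with a member region, CLDN18, CLDN5) and the count of repeated stretches were chosen after their values were seen. HNF4 sites are shown as short stretches and no untranslated region is printed at length. One gene and one sequence that the rule chose are not reported here. A comparison with mouse genes of the same symbol was void, since under 80% of control-only and KO-only genes matched.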

Additional observations from a re-analysis of the deposited data

How the results depend on the processing

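Of 90 values recomputed under other settings, 38 stayed within their limits. Control-only and KO-only counts were 2781 (start sites within 500 bp, control-only), 1560 and 460 (within 100 bp), 2446 and 687 (canonical start sites), 2019 and 612 (upper 50% by score), 2042 and 2076 (lists of equal size), and 666 KO-only regions when shared within 500 bp. Shortening lists itself turns shared regions into one-list ones. As shares of promoter regions these were, in control and HNF4G-KO lists, 17.5% and 5.41% (50% of the region covered), 10.7% and 2.52% (shared within 500 bp), 11.4% and 3.55% (start sites within 500 bp), 7.85% and 2.47% (within 100 bp), 11.5% and 3.49% (canonical), 10.7% and 3.49% (upper 50%), and 7.92% and 7.86% (equal size). Protein-coding shares of control-only regions were 60.3% (shared within 500 bp), 64.3% and 62.8% (500 and 100 bp), 47.3% (canonical), 64% (upper 50%) and 62.2% (gene of the nearest start site), and of KO-only regions 67.1% (shared within 500 bp), 62.3% (canonical), 83.7% (upper 50%) and 69.3% (nearest). Over all gene types, shares keeping another shared promoter region were 62.1% and 65.8% as reported, and 50.9% and 52.1% (shared within 500 bp), 55.7% and 61.4% (500 bp), 46.4% and 48.7% (100 bp), 38.4% and 45.0% (canonical), 44.9% and 44% (upper 50%), and 61.6% (KO-only, equal size). The GC difference was -3.19 points in control-only regions of 150 to 400 bp. In KO-only regions it was -1.77 points as reported, -1.02 at protein-coding genes, 0.293 over the whole region, 2.74 at 150 to 400 bp and 2.05 at that width in the lower 30% by score, a setting chosen after seeing the data, so its direction turned with width. Searching the whole region turned the HNF4 difference to -0.61 points (control-only) and gave -1.05 points (KO-only). In the central window the control-only difference was 0.442 points as reported and 0.380 at 150 to 400 bp. The cause was not tested. No paired analysis was possible because each group has 1 list and the lists hold no values per replicate.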
